A study of Mus musculus with 12 samples.

Results

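The 9 genes Emx2, Lhx2, Otx1, Otx2, Six3, Pax6, Gsx2, Dlx1 and Dlx2 encode homeobox transcription factors that pattern the embryonic forebrain. They were followed through mouse glioblastoma and neural stem cell (NSC) cultures. A gene was read through every probe set whose annotation gives its symbol and no other, which left 1 probe set per gene, 9 of 21780 such probe sets and 9 of 19934 genes. The rule itself reads symbols, but the 9 genes were put forward with earlier results of these data known.

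The study compared glioblastoma cells that started from different cell types, and measured 12 cultures on 1 whole-transcript array each. All 12 came from mice lacking Arf, a tumour suppressor of the Cdkn2a locus, and carrying tv-a, through which an avian retrovirus enters cells, so the NSC cultures share both alterations with the tumour cultures. Tumours were raised by placing DF-1 chicken cells that release a retrovirus encoding tagged PDGFB (RCAS-PDGFB-HA) in adult brain. Group mGC1_GFAP holds 3 cultures of G/tv-a Arf-/- mice, mGC2_NES 3 of N/tv-a Arf-/- mice, and mGC3_CNP 3 of C/tv-a Arf-/- mice. In these lines the promoters of Gfap (astrocytes and stem cells), Nes (progenitors) and Cnp (oligodendrocyte lineage) direct the receptor. The NSC group holds 3 cultures of the adult subventricular zone, 1 from each line, named here by that line. All grew attached to the dish in the same stem cell medium and received no treatment. The mice were adult, with no age given in the labels. Since a tumour group and its mouse line coincide, origin and line cannot be told apart. The labels call the tumour cultures independent without naming their animals. The p-values therefore describe the scatter among cultures, which may be less than that among animals.

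A homeodomain is a DNA-binding fold that recognises short AT-rich sites, and the genes that carry one act as a positional code along the neural tube. Otx1, Otx2 and Six3 set up the anterior brain, Lhx2, Emx2 and Pax6 shape the dorsal telencephalon, and Gsx2, Dlx1 and Dlx2 shape the ventral telencephalon and its interneurons. Several of them, among them Pax6, Gsx2, Emx2 and the Dlx genes, stay in use in the adult subventricular zone, where stem cells make neuroblasts for the olfactory bulb.

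The core of many homeodomain sites is TAAT, and the promoters of the members were searched for it because their levels fell together. RefSeq promoters of GRCm38.p6, 250 bases before to 50 after a transcription start, were at hand for 8 members (13 promoters), and Otx1 was not among them. The promoters of Emx2 (chr19:59458440-59458739, plus strand), Gsx2 (chr5:75075351-75075650, plus strand) and Dlx2 (chr2:71546705-71547004, minus strand) are shown 5′ to 3′. They are 1 dorsal and 2 ventral examples with several, few and no matches. Capitals mark TAAT on either strand (TAAT or ATTA).

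Emx2: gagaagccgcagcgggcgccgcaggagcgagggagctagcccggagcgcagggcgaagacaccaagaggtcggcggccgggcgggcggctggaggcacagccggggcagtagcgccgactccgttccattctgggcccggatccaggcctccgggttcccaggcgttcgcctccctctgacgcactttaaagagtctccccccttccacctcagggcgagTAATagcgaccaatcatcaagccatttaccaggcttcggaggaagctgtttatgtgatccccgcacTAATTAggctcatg

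Gsx2: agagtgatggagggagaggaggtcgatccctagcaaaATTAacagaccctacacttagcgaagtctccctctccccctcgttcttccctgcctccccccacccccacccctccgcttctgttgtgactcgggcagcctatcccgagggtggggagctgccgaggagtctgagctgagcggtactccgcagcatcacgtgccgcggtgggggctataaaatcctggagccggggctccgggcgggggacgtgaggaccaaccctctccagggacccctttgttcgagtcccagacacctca

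Dlx2: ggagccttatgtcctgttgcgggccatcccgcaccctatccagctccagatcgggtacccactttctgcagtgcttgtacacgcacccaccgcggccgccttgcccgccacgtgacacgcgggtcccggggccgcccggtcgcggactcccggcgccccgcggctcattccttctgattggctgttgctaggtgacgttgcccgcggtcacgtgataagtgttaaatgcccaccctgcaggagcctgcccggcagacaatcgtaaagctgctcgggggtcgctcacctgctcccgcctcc

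Emx2 held 3 matches, Gsx2 1 and Dlx2 0, while 1 Otx2 promoter, not shown, held 10. Over all members, 9 of 13 promoters held TAAT on either strand, in 5 of 8 genes, against 58.0% of all 32851 promoters. The longer TAATTA, which reads the same on both strands and contains TAAT on each strand, was in 3 of 13 promoters (Emx2 and Otx2) against 5.29% of all. These belong to 2 of 8 genes. Otx2 has several promoters among the 13, some overlapping, so the promoter counts are not independent. The 13 promoters had a median of 17 CG dinucleotides, against 7 over all promoters, and 12 of 13 lay above 7. A match describes letters and not a bound site.

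All 9 genes were lower in the tumour cultures, and in every one each of the 9 tumour arrays lay below each of the 3 NSC arrays. Values are log2 expression as the authors deposited them, on which a difference of 1 is a factor of 2. By limma, with p-values adjusted by Benjamini-Hochberg across the 21780 probe sets, 9 of 9 members passed an adjusted p under 0.05 for tumour against NSC, in which the 3 tumour groups weigh equally. Of all probe sets 36.7% passed and 19.2% passed as lower, so that calls are common in this comparison. Of all probe sets, 14.3% had every tumour array below every NSC array. The median difference was -1.50 over the members and 0.01 over all probe sets.

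A low array reading is not a measure of absence. Genes of the sperm, namely Odf1, Prm2, Tnp1 and Tnp2, should be silent in brain cultures and read 5.60 to 7.42, and the 95th percentile over 1023 probe sets for olfactory receptors was 6.64. A difference whose lower mean is at or below 7.42 is therefore a lower bound. NSC means were above 7.42 for 8 of 9 members, all but Otx2, and tumour means for 5 of 9 in each tumour group. Levels of different genes were not set against each other, since each probe set has its own response.

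**Figure D1:**
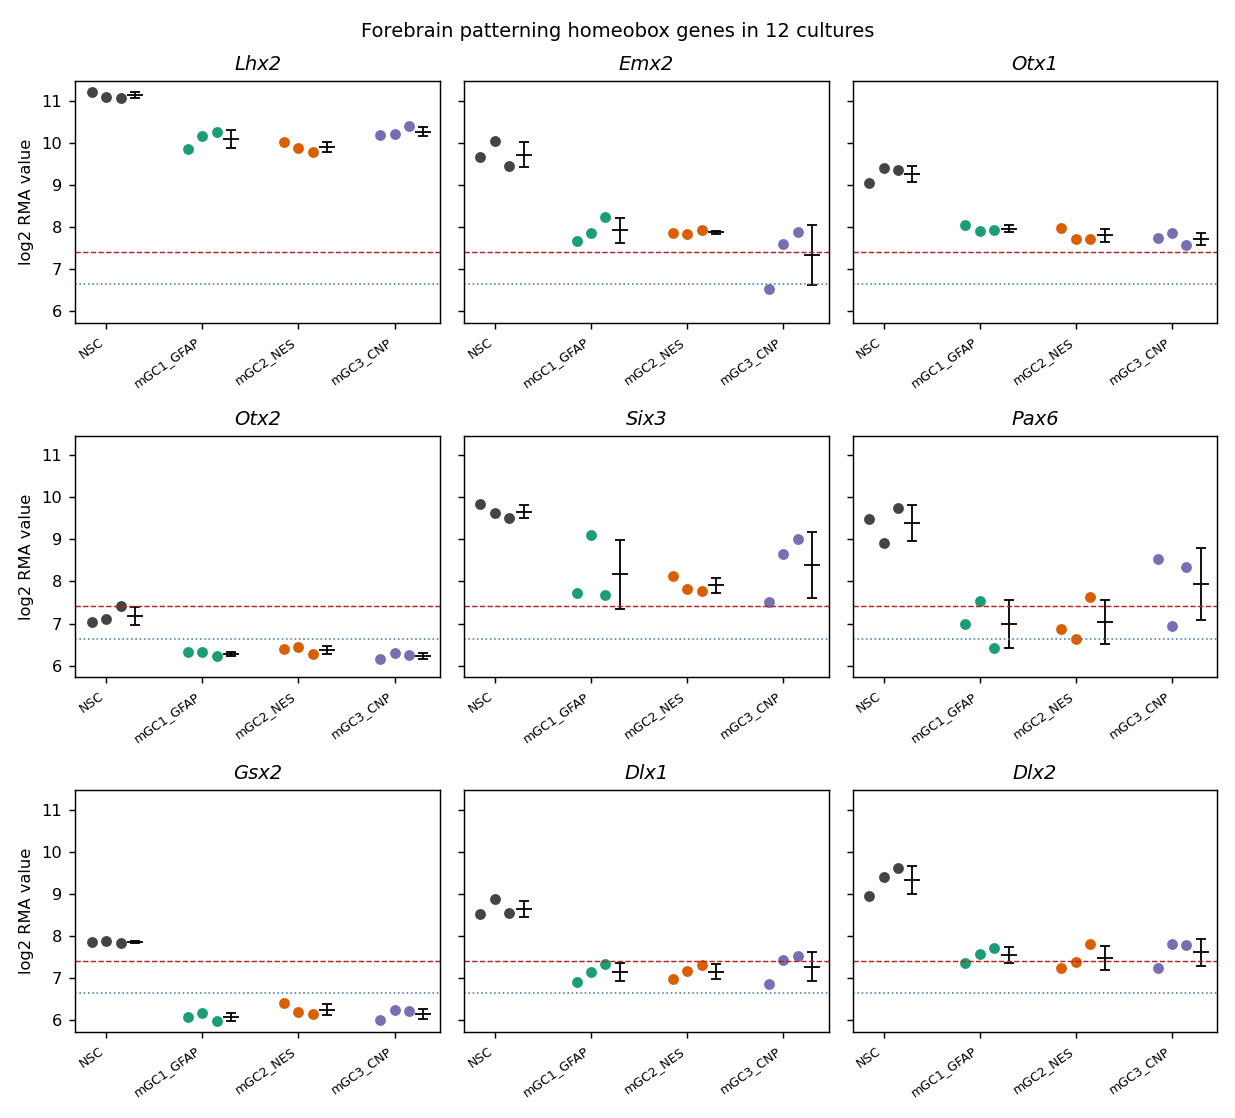
Log2 value of each member (y axis) in the 12 cultures, 1 point per array, by group (x axis), with the group mean and SD (n = 3) as a bar; the dashed line is the highest spermatid gene reading (7.42) and the dotted line the 95th percentile of olfactory receptor probe sets (6.64). All tumour points lie below all NSC points in every panel, by the least in Six3 and Pax6, and the tumour points of Otx2 and Gsx2 lie below both lines.

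Among the anterior genes, Otx1, which acts in the cortex and in the anterior neural plate, read 9.04 in the C/tv-a NSC culture, 9.39 in N/tv-a and 9.36 in G/tv-a. It read 8.05, 7.90 and 7.92 in mGC1_GFAP, 7.99, 7.71 and 7.72 in mGC2_NES, and 7.73, 7.85 and 7.58 in mGC3_CNP. All tumour values were at least 1.00 below the lowest NSC value. Values of mGC2_NES overlapped both other tumour groups, while the 3 mGC1_GFAP values lay above the 3 of mGC3_CNP. Tumour minus NSC was -1.44 ± 0.09 (SE; limma adjusted p = 2.79e-07).

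Otx2, a head organiser gene needed for forebrain and midbrain, read 7.03 (C/tv-a), 7.10 (N/tv-a) and 7.42 (G/tv-a) in NSC. Tumour cultures ranged from 6.16 to 6.44 with a median of 6.30. Its NSC mean of 7.18 ± 0.21 (SD, n = 3) was itself below the highest spermatid reading, so the difference of -0.88 ± 0.08 (limma adjusted p = 4.88e-06) sets 2 readings in the background range side by side.

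Six3, which keeps the rostral forebrain from taking a more caudal fate by repressing Wnt genes, had uneven tumour values. NSC read 9.83 (C/tv-a), 9.63 (N/tv-a) and 9.52 (G/tv-a). Replicates 1 to 3 read 7.72, 9.11 and 7.68 in mGC1_GFAP, 8.12, 7.81 and 7.78 in mGC2_NES, and 7.50, 8.64 and 9.01 in mGC3_CNP. The cultures mGC1_GFAP replicate 2 and mGC3_CNP replicates 2 and 3 thus lay well above the other 6 tumour cultures, and the highest of them was 0.41 below the lowest NSC culture. Tumour minus NSC was -1.50 ± 0.33 (limma adjusted p = 3.31e-03).

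Emx2, a dorsal telencephalon gene that sets cortical areas and is active in adult stem cells, read 9.65 (C/tv-a), 10.03 (N/tv-a) and 9.46 (G/tv-a) in NSC. It read 7.66, 7.85 and 8.25 in mGC1_GFAP, 7.86, 7.84 and 7.92 in mGC2_NES, and 6.54, 7.60 and 7.87 in mGC3_CNP. The gap to NSC was 1.21, and mGC3_CNP replicate 1, at 6.54, was the lowest culture and the only one of 9 below 7.42. Tumour minus NSC was -2.01 ± 0.23 (limma adjusted p = 3.85e-05).

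Lhx2, a LIM-homeodomain selector of cortical identity that also maintains progenitors, kept its tumour readings far above the background range. NSC read 11.20 (C/tv-a), 11.09 (N/tv-a) and 11.07 (G/tv-a). It read 9.85, 10.17 and 10.26 in mGC1_GFAP, 10.03, 9.88 and 9.78 in mGC2_NES, and 10.18, 10.22 and 10.40 in mGC3_CNP. The tumour values spanned a narrow range that ended 0.67 below NSC, and the 3 mGC2_NES values lay below the 3 of mGC3_CNP. Tumour minus NSC was -1.04 ± 0.09 (limma adjusted p = 3.37e-06).

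Pax6, which marks dorsal progenitors and a class of olfactory bulb neuroblasts, read 9.49 (C/tv-a), 8.91 (N/tv-a) and 9.75 (G/tv-a) in NSC. Replicates 1 to 3 read 6.99, 7.55 and 6.42 in mGC1_GFAP, 6.88, 6.63 and 7.62 in mGC2_NES, and 8.52, 6.95 and 8.35 in mGC3_CNP. The cultures mGC3_CNP replicates 1 and 3 stood apart from the other 7 and came within 0.39 of the lowest NSC culture. Of the 9 tumour readings 4 were above 7.42. Tumour minus NSC was -2.06 ± 0.35 (limma adjusted p = 6.08e-04), a lower bound since the tumour mean was 7.32 ± 0.74 (SD, n = 9).

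Of the ventral genes, Gsx2, which specifies progenitors of the lateral ganglionic eminence and acts upstream of the Dlx genes, was in the background range in the tumours. NSC read 7.86 (C/tv-a), 7.88 (N/tv-a) and 7.84 (G/tv-a). It read 6.08, 6.17 and 5.99 in mGC1_GFAP, 6.40, 6.19 and 6.15 in mGC2_NES, and 6.02, 6.23 and 6.21 in mGC3_CNP. All 9 tumour readings were below 6.64 and at least 1.44 below NSC. The difference of -1.70 ± 0.07 (limma adjusted p = 7.67e-09) is a lower bound.

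Dlx2, which drives interneuron and olfactory bulb neuroblast fate, read 8.96 (C/tv-a), 9.40 (N/tv-a) and 9.60 (G/tv-a) in NSC. It read 7.35, 7.57 and 7.72 in mGC1_GFAP, 7.24, 7.38 and 7.81 in mGC2_NES, and 7.24, 7.80 and 7.79 in mGC3_CNP. The groups of tumour cultures overlapped and ended 1.15 below NSC. Tumour minus NSC was -1.77 ± 0.17 (limma adjusted p = 6.93e-06), and 5 of 9 tumour readings were above 7.42.

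Dlx1, its partner in the same gene pair, read 8.53 (C/tv-a), 8.87 (N/tv-a) and 8.53 (G/tv-a) in NSC. Tumour cultures ranged from 6.87 to 7.52 with a median of 7.17, which left 2 of 9 above 7.42 and a gap of 1.00 to NSC. The difference of -1.46 ± 0.14 (limma adjusted p = 1.01e-05) is a lower bound.

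Each tumour group was then set against NSC on its own. These 3 comparisons share the NSC arrays, so their likeness is not separate evidence. All 9 members passed as lower in each of them by limma. For mGC1_GFAP 29.3% of all probe sets passed and 15.3% passed as lower, for mGC2_NES 34.9% and 18.2%, and for mGC3_CNP 30.3% and 15.5%. Gsx2 was at -1.78 ± 0.09, -1.61 ± 0.09 and -1.71 ± 0.09 in mGC1_GFAP, mGC2_NES and mGC3_CNP, all lower bounds with no order among them. Emx2 was at -1.80 ± 0.29, -1.84 ± 0.29 and -2.38 ± 0.29, the last with a group mean of 7.34 and so a lower bound. Dlx2 was at -1.77 ± 0.20, -1.84 ± 0.20 and -1.71 ± 0.20, with standard errors wider than the steps between them.

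The calls for Six3 and Pax6 rested on few cultures in some groups. Pax6 was at -2.40 ± 0.43 (limma adjusted p = 1.26e-03) in mGC1_GFAP, -2.34 ± 0.43 (1.18e-03) in mGC2_NES and -1.44 ± 0.43 (2.36e-02) in mGC3_CNP. Those of mGC1_GFAP and mGC2_NES are lower bounds, with group means of 6.98 and 7.04. The mGC3_CNP value lost its call without the C/tv-a NSC culture (-1.39, adjusted p = 0.0688), without the G/tv-a NSC culture (-1.25, 0.0823) and without mGC3_CNP replicate 2 (-0.94, 0.0859). Six3 was at -1.49 ± 0.40 (1.53e-02) in mGC1_GFAP, -1.75 ± 0.40 (4.99e-03) in mGC2_NES and -1.27 ± 0.40 (3.19e-02) in mGC3_CNP. In mGC1_GFAP the Six3 call was lost without the C/tv-a NSC culture (-1.40, 0.0535), replicate 1 (-1.27, 0.0632) or replicate 3 (-1.24, 0.0627). In mGC3_CNP it was lost without the NSC culture of C/tv-a (-1.19, 0.0939), N/tv-a (-1.29, 0.0697) or G/tv-a (-1.34, 0.0561), and without replicate 1, where the value moved by over 1.5 times to -0.83 (0.114).

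**Figure D2:**
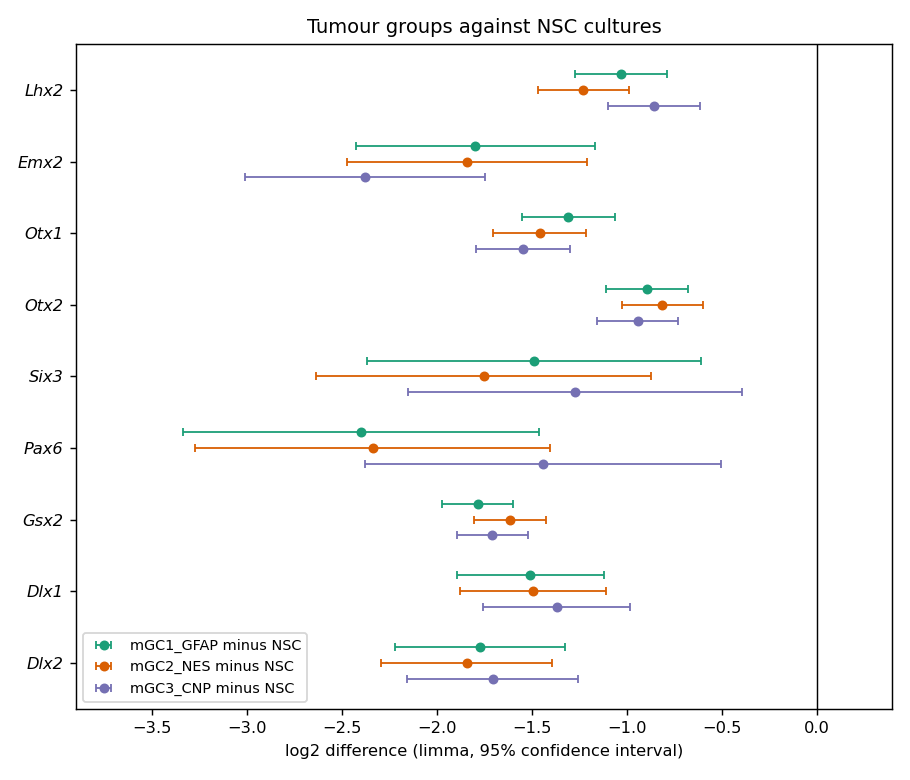
Log2 difference of each tumour group from NSC (x axis) for the 9 members (y axis), as the limma estimate with its 95% confidence interval, from 3 arrays a group. All 27 intervals lie below 0, and those of Six3, Pax6 and Emx2 are the widest.

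The NSC culture of the same mouse line gives another base for each group, with 1 culture a line and so no test. All 27 differences of a tumour group mean from its own line's NSC culture were below 0. That sign adds nothing, since every tumour array lay below every NSC array, and only the sizes are of use. For Pax6 they were -2.77 in G/tv-a, -1.87 in N/tv-a and -1.54 in C/tv-a, and for Emx2 -1.54, -2.16 and -2.32. The Pax6 values of G/tv-a and N/tv-a and the Emx2 value of C/tv-a are lower bounds. Gsx2 was at -1.76, -1.64 and -1.71, each a lower bound. Among the NSC cultures themselves no line was uniformly high or low: N/tv-a was highest for 4 members, G/tv-a for 3 and C/tv-a for 2.

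Between the tumour groups, which is the comparison of cells of origin, 0 of 9 members passed in any pair by limma on the 9 tumour arrays. For mGC1_GFAP against mGC2_NES 6.13% of all probe sets passed, for mGC1_GFAP against mGC3_CNP 0.487%, and for mGC2_NES against mGC3_CNP 0.459%. By the moderated F test of any difference 0 of 9 members and 4.05% of all probe sets passed. At an unadjusted p under 0.05 the members numbered 0, 1 and 1 in the 3 pairs and 1 by the F test. Of all 21780 probe sets, 4479, 2816 and 2900 were under it in the 3 pairs and 4242 by the F test, so such values were common. The members under it were Otx1, higher in mGC1_GFAP than in mGC3_CNP by 0.24 (95% confidence interval 0.01 to 0.46, adjusted p = 0.356), and Lhx2, at -0.37 for mGC2_NES minus mGC3_CNP (-0.64 to -0.11, adjusted p = 0.220). For Lhx2 the F test gave an adjusted p of 0.211.

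The intervals show what 3 cultures a group could resolve. For Dlx2 the mGC1_GFAP minus mGC2_NES difference was 0.07, with a 95% interval of -0.35 to 0.50. For Pax6 the mGC1_GFAP minus mGC3_CNP difference was -0.96 (-1.96 to 0.04, limma adjusted p = 0.406) and mGC2_NES minus mGC3_CNP was -0.90 (-1.90 to 0.10, adjusted p = 0.425). For Emx2 the mGC1_GFAP minus mGC3_CNP difference was 0.58 (-0.09 to 1.25, adjusted p = 0.459). For Six3 the mGC2_NES minus mGC3_CNP difference was -0.48 (-1.47 to 0.51, adjusted p = 0.703). A missed threshold with intervals this wide does not show that the origins are alike for Pax6, Six3 and Emx2.

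The NSC mean was the highest group mean for all 9 members, and the order of the tumour means differed from gene to gene. It ran mGC1_GFAP, mGC2_NES, mGC3_CNP for Emx2 and Otx1, and mGC3_CNP, mGC1_GFAP, mGC2_NES for Lhx2, Six3 and Dlx2. For Pax6 and Dlx1 it ran mGC3_CNP, mGC2_NES, mGC1_GFAP, for Otx2 mGC2_NES, mGC1_GFAP, mGC3_CNP, and for Gsx2 mGC2_NES, mGC3_CNP, mGC1_GFAP. All tumour means of Otx2, Gsx2 and Dlx1 were below 7.42, so their orders may be of background readings and not of expression. For Otx2 and Gsx2 all 9 tumour readings were also below 6.64, while for Dlx1 all 9 were above it. Neighbouring tumour means in all these orders did not pass a test.

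Members differed in how much cultures of 1 tumour group varied. The pooled SD within tumour groups was 0.67 for Pax6 and 0.66 for Six3, larger than for 98.9% of all probe sets, and 0.44 for Emx2, larger than for 97.4%. It was 0.27 for Dlx2 and 0.26 for Dlx1, larger than for 92.6% and 91.7%. Lhx2 (0.16), Otx1 (0.13), Gsx2 (0.12) and Otx2 (0.07) were closer to the median of 0.11 over all probe sets, with Otx2 and Gsx2 in the background range in the tumours. The culture mGC3_CNP replicate 3 was high in both Six3 (9.01) and Pax6 (8.35). In contrast, mGC1_GFAP replicate 2 and mGC3_CNP replicate 2 read 9.11 and 8.64 for Six3 but 7.55 and 6.95 for Pax6, and mGC3_CNP replicate 1 read 7.50 for Six3 and 8.52 for Pax6.

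Other genes of the same families, picked after values were seen, moved in both directions or did not pass. Of 25 probe sets, 5 rose in tumour against NSC, 1 fell and 19 did not pass, with a median of 0.07. Of those 19, only Emx1 (7.97), Lhx6 (7.62), Pax1 (7.58) and Dlx3 (7.54) had NSC means above 7.42. For the others a fall may not show. Gsx1, the close relative of Gsx2, rose by 0.96 ± 0.27 (limma adjusted p = 0.0160), with NSC at 7.88 to 8.78 and tumours at 8.47 to 9.75, so the groups overlapped. Its call was lost without the NSC culture of C/tv-a (0.74, adjusted p = 0.102) or of G/tv-a (0.94, 0.0548). Dlx5 and Dlx6, which form another gene pair of the Dlx family, gave 0.66 ± 0.36 (0.187) and 1.00 ± 0.41 (0.0827). Dlx6 ranged from 7.01 to 9.60 in the tumours against 6.59 to 7.07 in NSC, with the widest spread in mGC1_GFAP.

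Among the relatives of Six3 the direction split by gene. Six2, which holds kidney progenitors in an undifferentiated state and lies beside Six3, read 7.36 ± 0.05 (SD, n = 3) in NSC and 11.2 ± 0.48 (n = 9) in tumours, a rise of at least 3.82 ± 0.25 (limma adjusted p = 3.61e-07). Six4 rose by 1.43 ± 0.16 (limma adjusted p = 2.75e-05), and Six5 was called lower at -0.36 ± 0.07 (2.21e-03) between readings of 7.27 and 6.90, both below 7.42. Six6, a close relative of Six3 in eye development, was at 0.12 (0.330) between background readings of 6.52 and 6.64. Among LIM-homeobox genes Lhx1 rose by at least 1.01 ± 0.17 (7.06e-04). Lhx4 rose by 0.34 ± 0.10 (0.0169), a call lost without the NSC culture of N/tv-a (0.30, 0.0783) or G/tv-a (0.33, 0.0623). Emx1 was at 0.10 ± 0.05 (0.134), and 0 of 8 other Pax probe sets passed, with differences between -0.07 and 0.17. Of those 8 only Pax1 read above 7.42 in NSC.

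**Figure D3:**
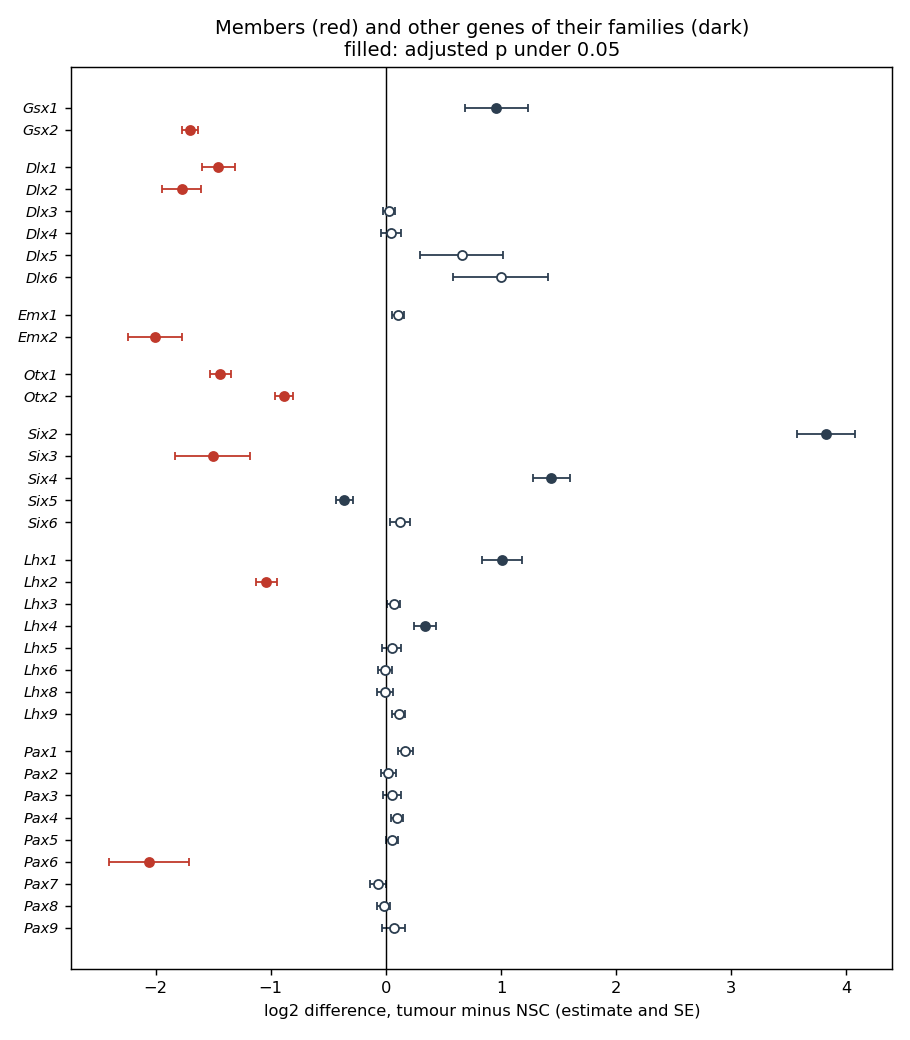
Log2 difference of tumour minus NSC (x axis, limma estimate and SE) for the members (red) and all other measured genes of their families (dark), with filled points for an adjusted p under 0.05. The 9 members lie below 0, while Six2 at 3.82, Six4 at 1.43, Lhx1 at 1.01 and Gsx1 at 0.96 lie above. Most genes that did not pass read below 7.42 in NSC, where a fall may not show.

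Genes beside the members on the chromosome, by RefSeq gene order and also chosen after values were seen, moved in various ways. Six3os1, a noncoding RNA on the opposite strand next to Six3, fell with it, by 2.19 ± 0.15 (limma adjusted p = 3.94e-07) from 8.85 to 6.66, a lower bound. Dlx1as, an antisense transcript between Dlx1 and Dlx2, read 6.52 in both and differed by 0.01 ± 0.08. Both means were in the background range, where a fall may not show. Whether each probe set reads 1 strand was not tested. Itga6, an integrin beyond Dlx2, fell by 5.69 ± 0.13 to the background range (6.05), and Metap1d, beyond Dlx1, was at -0.06. Pdgfra, the PDGF receptor gene beside Gsx2, rose by 3.80 ± 0.06, while Chic2 on the other side fell by 0.33 (1.66e-03). Nek6, a mitotic kinase gene beside Lhx2, fell with it (-1.81 ± 0.17, 8.40e-06), from 10.8 to 9.01. Dennd1a, on the other side of Lhx2, rose by 0.32 ± 0.09 (limma adjusted p = 1.42e-02). That call was lost without the NSC culture of C/tv-a (0.23, 0.0984) or N/tv-a (0.30, 0.0637). Beside Otx1, Otx2 and Pax6 the differences lay between -0.42 (Wdpcp, beside Otx1) and 0.61 (Tmem260, beside Otx2). The genes on either side of Emx2, Pdzd8 and Rab11fip2, were at -0.01 and 0.11.

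Lists of other patterning genes give the setting. They held 127 genes in 8 lists, of which 116 were measured. Over all probe sets 3825 rose in tumour against NSC, 4179 fell and 13776 did not pass, with a median of 0.01. List genes that did not pass include some with NSC means below 7.42, such as Hesx1 (5.04), Isl1 (6.04) and Eomes (6.20). For those a fall may not show. Others, such as Cux1 (9.86) and Gas1 (10.1), read above 7.42 in NSC. A list median near 0 is thus not a measure of unchanged expression.

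Of 19 probe sets for other telencephalon homeobox genes, 3 rose, 3 fell and 13 did not pass, with a median of 0.10. Meis2, a partner of Pax6 and Dlx2 in olfactory bulb neurogenesis, fell by 2.33 ± 0.60 (limma adjusted p = 9.10e-03), and 1 mGC1_GFAP culture read 7.05 where the highest read 10.7. Meis1 fell by 1.66 ± 0.17 and Pou3f4, a neural POU factor, by 1.41 ± 0.11. Cux2, an upper-layer cortical gene, rose by 1.00 ± 0.08, and the other 2 that rose were Gsx1 and Pou3f3 (0.27 ± 0.07, adjusted p = 0.0610 without the G/tv-a NSC culture).

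Of 17 telencephalon regulators without a homeobox, 1 rose, 5 fell and 11 did not pass, with a median of -0.07. Nr2e1, the orphan receptor TLX needed by adult neural stem cells, fell by 1.76 ± 0.10 (limma adjusted p = 1.47e-07), and Nr2f1, a cortical area gene, by 0.87 ± 0.10. Gli3, a hedgehog pathway repressor in dorsal telencephalon, fell by 0.80 ± 0.19, with 7.57 in mGC1_GFAP and 8.82 in mGC2_NES, and lost its call when the 9 tumour arrays were fitted as 1 group (adjusted p = 0.112). Zic2 was the 1 gene that rose, by 0.75 ± 0.25 (0.0351). Its call was lost without the NSC culture of N/tv-a (0.77, 0.0819) or G/tv-a (0.54, 0.181), without mGC1_GFAP replicate 2 or 3 or mGC2_NES replicate 2 (0.72 to 0.73, 0.0536 to 0.0587), with mouse line as a block (0.0973), and with the tumour arrays as 1 group (0.132).

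Of 16 diencephalon and eye homeobox genes, 6 rose, 1 fell and 9 did not pass, with a median of 0.12. The Iroquois genes, which pattern neural tissue behind the telencephalon, rose: Irx1 by 2.60 ± 0.07 (limma adjusted p = 2.86e-10), Irx5 by 2.17 ± 0.25 and Irx2 by 1.60 ± 0.16. Barhl2, a diencephalic and retinal gene, fell from 9.73 to 7.01, a difference of -2.71 ± 0.14 that is a lower bound. Of 12 midbrain, hindbrain and dorsal neural tube genes, 5 rose, 0 fell and 7 did not pass, with a median of 0.05. En2, the midbrain-hindbrain engrailed gene, read 6.44 in NSC and 9.31 in tumours, a rise of at least 2.87 ± 0.13. Msx1 rose by at least 0.67 ± 0.12 and Lmx1b by 0.60 ± 0.06. The other engrailed gene, En1, was called at 0.58 ± 0.19 (0.0360), with 0.22 in mGC1_GFAP not passing (0.581). Its call was lost without the NSC culture of C/tv-a (0.49, 0.151) or N/tv-a (0.56, 0.104), without mGC1_GFAP replicate 2 (0.54, 0.0587) or mGC2_NES replicate 2 (0.52, 0.0536), with array medians subtracted (0.55, 0.0509), with mouse line as a block (0.0667) and with the tumour arrays as 1 group (0.0946).

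Of 10 ventral neural tube homeobox genes, 2 rose, 1 fell and 7 did not pass, with a median of 0.03. Nkx2-2, which also acts in oligodendrocyte maturation, rose by 2.33 ± 0.16 (limma adjusted p = 5.52e-07), Lhx4 was the other that rose, and Dbx2, a spinal progenitor gene, fell (-1.66 ± 0.13, a lower bound). Of 17 forebrain patterning signals, 6 rose, 2 fell and 9 did not pass, with a median of 0.06. The dorsalising signals Bmp7 and Bmp4 rose by 3.06 ± 0.13 and by at least 1.87 ± 0.21. Sfrp1, a secreted Wnt antagonist, rose by 1.67 ± 0.27, with means of 9.25 in mGC1_GFAP, 12.4 in mGC2_NES and 11.8 in mGC3_CNP against 9.47 in NSC, and lost its call when the tumour arrays were fitted as 1 group (adjusted p = 0.134). Sfrp2, its relative, fell (-1.03 ± 0.17, a lower bound). Cdon, a hedgehog coreceptor, was called lower (-0.47 ± 0.10), but its NSC mean of 5.94 was itself a background reading.

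Of 11 genes that act downstream of Dlx factors in interneurons, 2 rose, 5 fell and 4 did not pass, with a median of -0.18. Tiam2 and Robo2, which act in migration, fell. Tiam2 was at -1.90 ± 0.27 (limma adjusted p = 1.51e-04) and Robo2 at -1.86 ± 0.22, the former a lower bound. Ackr3, a chemokine receptor of migrating interneurons, was called lower (-1.14 ± 0.21) from an NSC mean of 7.29, itself below 7.42. Its NSC readings ran from 6.79 to 8.09 and its tumour readings from 5.90 to 6.41. The Ackr3 difference was -0.74 without the G/tv-a NSC culture. Gad1, which makes the transmitter GABA, went the other way with a rise of 0.84 ± 0.13, as did Zfhx3 with 0.36 ± 0.10, a call lost without the C/tv-a NSC culture (0.34, adjusted p = 0.0570) and with the tumour arrays as 1 group (0.0887).

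Of 15 cofactors that bind the member proteins or their relatives, 3 rose, 8 fell and 4 did not pass, with a median of -0.20. Ldb2 and Lmo3, of the LIM-domain complexes in which Lhx2 acts, fell. Ldb2 was at -1.42 ± 0.44 (limma adjusted p = 0.0241), a lower bound, and Lmo3 at -1.42 ± 0.11. The Ldb2 call was lost on leaving out the NSC culture of C/tv-a (-1.54, 0.0522), N/tv-a (-1.32, 0.0908) or G/tv-a (-1.41, 0.0719). Tle3, a Groucho corepressor of the kind Six3 recruits, fell by 0.95 ± 0.13, as did its relatives Tle4 by 0.73 ± 0.11 and Tle1 by 0.19 ± 0.06. The Tle1 call was lost on leaving out any 1 NSC culture (-0.19 to -0.18, adjusted p = 0.0736 to 0.0853), with mouse line as a block (0.0533) and with the tumour arrays as 1 group (0.0959). Tle2 and Tle5 rose by 1.52 ± 0.09 and 0.31 ± 0.06 and the LIM-only gene Lmo2 by 0.56 ± 0.10.

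**Figure D4:**
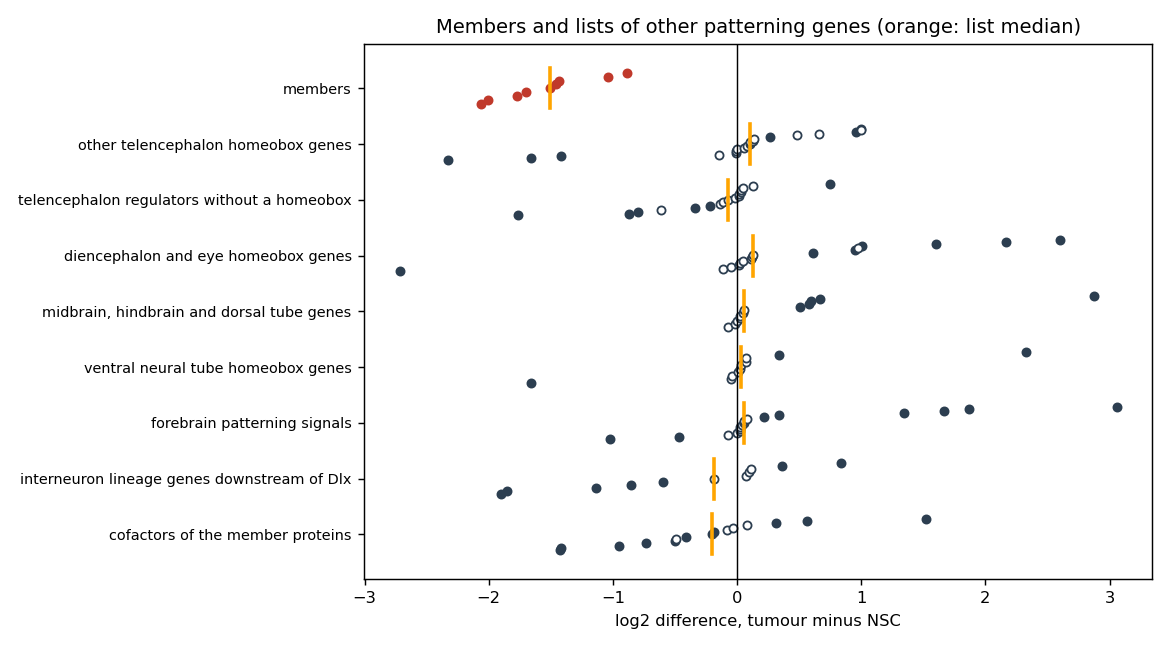
Log2 difference of tumour minus NSC (x axis) for each probe set of the members (red) and of 8 lists of other patterning genes and their cofactors (dark), with filled points for a limma adjusted p under 0.05, open points for those that did not pass, and an orange line at the list median. The members' median is -1.50, and the medians of the 8 lists lie between -0.20 and 0.12. Some list genes read below 7.42 in NSC, where a fall may not show.

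Markers of cell types moved with the same comparison. Of 10 neural stem cell markers 7 fell, 0 rose and 3 did not pass by limma, and the mean log2 value of the list was 11.4 to 11.7 in NSC, 10.1 to 10.3 in mGC1_GFAP, 9.54 to 9.78 in mGC2_NES and 9.89 to 10.2 in mGC3_CNP. Of 7 oligodendrocyte precursor markers 5 rose and 0 fell, with list means of 9.82 to 10.1 in NSC and between 12.6 and 12.8 in each tumour group. Olig1 and Olig2 did not rise, with means of 12.98 and 12.44 in NSC and 12.94 and 12.30 in tumours. For mGC2_NES against NSC alone 1 of these 7 markers fell. Of 7 astrocyte markers 4 fell and 2 rose, with list means of 9.59 to 9.84 in NSC and 8.16 to 8.44 in the tumour groups. Of 8 neuroblast and neuron markers 3 fell and 1 rose, at 8.94 to 9.58 in NSC and 8.64 to 9.21 in tumours. The part of these cell types in the members' levels was not tested. In such cultures, fewer cells of a type and less RNA per cell cannot be told apart.

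For the markers of other cell types, list means were 6.14 to 6.42 for 6 microglia markers, 6.56 to 6.91 for 5 endothelial markers and 6.33 to 6.60 for 6 choroid plexus and ependyma markers over all groups. Of the microglia markers 1 fell (P2ry12, 6.47 to 5.66, both background readings), of the endothelial markers 1 rose (Pecam1, 6.32 to 6.65, likewise), and of the choroid plexus and ependyma markers 1 fell (Foxj1, a ciliated cell regulator, 7.87 in NSC and 7.17 in tumours). For 6 pericyte and fibroblast markers the list means were 7.20 to 7.35 in NSC and 6.71 to 7.13 in tumours, with 2 lower, 1 higher and 3 not passed. Acta2, smooth muscle actin, moved with the members: it read 9.60 to 10.1 in NSC and 6.79 to 8.59 in tumours, at -2.76 ± 0.29 (limma adjusted p = 1.75e-05), a lower bound. The fibroblast collagen Col1a1 read 8.28 in both. The part of these cells in the members' levels was not tested.

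For each member the 2 genes with the most similar profile were found by the root mean square difference of log2 values centred on the gene mean over the 12 arrays. As these were chosen for likeness they carry no test, and the NSC arrays set most of it. Gsx2 was closest to Galnt4 (0.09) and Plscr2 (0.11), Otx2 to Papln (0.08) and Znrf3 (0.08), and Otx1 to Casq1 (0.12) and Bcar3 (0.14). Lhx2 was closest to Tmem131l (0.14) and Rcc1 (0.14), Dlx1 to Tspo (0.17) and Fnbp1 (0.18), and Dlx2 to Nkd1 (0.20) and Dhh (0.21). The uneven members had less close partners: Emx2 was nearest to Adamts4 (0.28) and Fzd3 (0.29), Six3 to Syde1 (0.31) and Igfbp3 (0.38), and Pax6 to Bdh1 (0.44) and Id1 (0.46). Members themselves were left out of this search.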

How the data were processed

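The deposited table holds log2 probe set values computed by the authors. The submitters' processing notes name RMA and Affymetrix Expression Console. RMA corrects background, gives all arrays 1 distribution and summarises probes, and so hides any shift common to most genes. The labelling kit made sense-strand cDNA, per the labels' protocols. The software version, annotation release and scan batch were not given in the sources used here. Array medians lay between 7.60 and 7.66. Arrays hold no read depth, and their number limits the precision.

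Of 28270 probe sets, 21780 had 1 symbol in the platform annotation of 2016 (19934 genes), 1617 had several and 4873 were not listed. RefSeq GRCm38.p6 matched 21689 by gene identifier. Values were used as deposited. Tests used R 4.3.3 with limma 3.58.1 (lmFit, eBayes), two-sided, with Benjamini-Hochberg adjustment over the 21780 probe sets, called at an adjusted p under 0.05, and were tested on simulated data. Comparisons with NSC were fitted on all 12 arrays in 4 groups, and pairs of tumour groups on the 9 tumour arrays. Errors of differences are standard errors. Alternatives were other scalings, filters, variance priors and blocks, and leaving out each culture.

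All members were named, and per list up to 3 called genes in each direction with the largest difference. Families, neighbours, En1, Tle1, Tle4 and single marker genes were added after their values were seen. The members and lists were chosen with earlier results of these data known.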

Additional observations from a re-analysis of the deposited data

How the results depend on the processing

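The tumour against NSC differences of the 9 members kept their direction and their call under all 170 alternative values. Under a filter on low readings 8 of 8 members were called, as Otx2 was not tested there. Against NSC, leaving out 1 culture gave 8 to 9 members called for mGC1_GFAP, 9 for mGC2_NES and 7 to 9 for mGC3_CNP. Of 483 alternative values for single groups against NSC, 473 kept their call and 10, all of Six3 or Pax6, lost it. Between tumour groups 0 members were called under any alternative, and 16 of 429 values, none called, changed sign. On leaving out 1 culture, mGC1_GFAP minus mGC2_NES ran from -0.12 to 0.17 for Emx2, -0.20 to 0.51 for Six3, -0.34 to 0.23 for Pax6, -0.11 to 0.10 for Dlx1 and -0.0486 to 0.24 for Dlx2. Dlx1 was at 0.0183 after a further quantile normalization. For mGC1_GFAP minus mGC3_CNP the range was -0.69 to 0.10 for Six3 and -0.25 to 0.0308 for Dlx2, and for mGC2_NES minus mGC3_CNP it was -0.0022 to 0.15 for Otx1. The cause of these changes was not tested. Over all probe sets, mGC1_GFAP against mGC2_NES gave 1336 calls (534 to 1619 with 1 culture left out), mGC1_GFAP against mGC3_CNP 106 (24 to 106, 165 with all probe sets of the table, 65 with all 12 arrays fitted), mGC2_NES against mGC3_CNP 100 (42 to 133, 164 with all probe sets) and the F test 882 (222 to 945). With mouse line as a block no member lost its call. What a replicate number shared between tumour groups stands for was not tested. Same-numbered cultures correlated at 0.0022 to 0.25, over 0.1 in 5 of 9 pairs. Other pairs ran from -0.19 to 0.13, with 1 of 18 over 0.1. With the replicate block 0 members were called, and all probe sets gave 1436, 74 and 121 calls in the 3 pairs. Readings below 7.42 limit what can be said of Otx2, Gsx2, Dlx1 and Pax6 in tumours.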
